A study of Mus musculus with 39 samples.

Results

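Transcripts of 10 genes of the circadian clock and its output were followed in the livers of 39 mice: Arntl, Clock, Npas2, Per1, Per2, Cry1, Nr1d1, Nr1d2, Dbp and Tef. They were chosen by name, as the genes to which the RefSeq accession of an array probe belongs, and they are 10 of 17016 genes that carry such a probe. They had 18 of 25903 RefSeq probes. Each gene is described by its probe with the highest mean Cy5 signal.

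The livers came from singly housed male C57BL/6J mice kept on a reversed light cycle. AggE mice spent 6 hrs of each day in a cage placed inside that of an SJL aggressor mouse, without food or liquid and with brief contacts, for 5 or 10 days. Ctrl mice kept the same schedule and food deprivation without an aggressor. After the 5-day stressor livers were taken at 24 hrs or 1.5 wks, and after the 10-day stressor at 24 hrs or 4 wks. The 4 wk time had 6 Ctrl and 6 AggE mice, and each of the other times had 4 Ctrl and 5 AggE mice. The mice were bought at 5 to 6 weeks of age, so that age at harvest differed between the times. Ctrl and AggE mice were harvested alternately, and a partition test with an aggressor came shortly before harvest. Labels did not all match: in the 1.5 wk groups, the number 10 that otherwise marks 10-day mice stands in the title of every AggE mouse and of Ctrl replicate 4, and the descriptions of AggE mice 24 hrs after 5 days also name 1 day. Mice were grouped by the source name, which names the 5-day regimen in each of these cases. The clock hour at which each liver was taken is not given in the sources used here.

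The mammalian clock is a loop of transcription. ARNTL (BMAL1) pairs with CLOCK or with its relative NPAS2 and turns on genes that carry E-boxes, among them the Per and Cry genes, whose proteins then hold that pair back, and Nr1d1 and Nr1d2, whose products (REV-ERB alpha and beta) repress Arntl through ROR elements. DBP and TEF are PAR bZip factors that carry the rhythm to D-box genes, and in liver this output reaches the enzymes of bile acid, lipid and drug metabolism. Transcript levels of most of these genes go up and down over each day in liver, and the food-intake schedule is known to shift them.

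The promoters below were searched for short motifs known from the loop, and were chosen for genes that the results turn on or that hold a motif. They run from 250 bases before to 50 bases after a RefSeq transcript start in the GRCm38.p6 build. Of the 10 genes, 9 have such an entry, with 14 entries in all, and Per2 has none. Capitals mark an E-box (CACGTG), a D-box (TTATGNAA) or a ROR element (TNGGTCA), searched on both strands. These motifs occur in 7.15%, 3.38% and 11% of 32851 mouse promoters of this length. An E-box was found in Cry1, Per1 and Tef, a D-box in Per1 and a ROR element in Arntl and Tef, and the windows of Dbp, Nr1d1, Nr1d2, Clock and Npas2 hold none of these letters. The other Per1 entry, not shown, holds none either. These are matches of letters alone, and binding was not tested.
Arntl promoter, chr7:113207261-113207560, plus strand: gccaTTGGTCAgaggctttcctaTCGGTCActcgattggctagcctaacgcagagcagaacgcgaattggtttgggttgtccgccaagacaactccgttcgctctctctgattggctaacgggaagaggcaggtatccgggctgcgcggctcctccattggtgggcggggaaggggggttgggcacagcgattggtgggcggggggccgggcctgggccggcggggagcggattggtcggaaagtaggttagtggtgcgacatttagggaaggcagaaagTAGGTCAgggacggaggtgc
Cry1 promoter, chr10:85185005-85185304, minus strand: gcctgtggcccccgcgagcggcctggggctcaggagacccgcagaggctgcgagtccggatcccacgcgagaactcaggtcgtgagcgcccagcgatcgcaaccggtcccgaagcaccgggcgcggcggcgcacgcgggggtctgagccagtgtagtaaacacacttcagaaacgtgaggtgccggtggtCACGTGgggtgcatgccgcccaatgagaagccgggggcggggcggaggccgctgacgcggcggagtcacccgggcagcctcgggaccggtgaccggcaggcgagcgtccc
Per1 promoter, chr11:69098699-69098998, plus strand: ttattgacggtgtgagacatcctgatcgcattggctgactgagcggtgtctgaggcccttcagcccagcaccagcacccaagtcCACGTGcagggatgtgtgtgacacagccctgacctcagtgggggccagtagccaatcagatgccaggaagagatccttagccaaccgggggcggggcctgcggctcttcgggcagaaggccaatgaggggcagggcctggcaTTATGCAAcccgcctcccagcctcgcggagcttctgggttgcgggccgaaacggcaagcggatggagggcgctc
Tef promoter, chr15:81811164-81811463, plus strand: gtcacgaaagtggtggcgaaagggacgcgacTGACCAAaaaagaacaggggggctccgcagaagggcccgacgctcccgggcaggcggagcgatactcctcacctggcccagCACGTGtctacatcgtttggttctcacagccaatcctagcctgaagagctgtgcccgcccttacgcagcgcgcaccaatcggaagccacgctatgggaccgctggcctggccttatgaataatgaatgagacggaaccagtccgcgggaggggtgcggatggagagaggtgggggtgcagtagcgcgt
Dbp promoter, chr7:45704997-45705296, plus strand: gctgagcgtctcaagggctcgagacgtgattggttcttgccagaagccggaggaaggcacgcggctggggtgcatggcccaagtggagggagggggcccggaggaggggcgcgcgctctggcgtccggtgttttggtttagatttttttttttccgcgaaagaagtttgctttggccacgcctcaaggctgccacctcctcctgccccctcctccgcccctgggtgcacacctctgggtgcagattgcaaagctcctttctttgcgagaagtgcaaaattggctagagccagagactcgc

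All values below are log2 ratios of liver over a common mouse reference RNA, labelled with Cy5 and Cy3, on 1 array per mouse. They compare mice and not genes, since a ratio also depends on the level in the reference. Brightness set what could be measured. Dbp and Tef were well above background in the liver channel on all 39 arrays, Per1 and Nr1d2 on 31, Per2 on 30, Clock on 28, Arntl on 22, Nr1d1 on 14, Npas2 on 6 and Cry1 on 2. The spots of Tef on 1 AggE array at 4 wks were marked as outliers, leaving 5 values there. The share of all non-control probes well above background ran from 14.8% to 47.3% per array in the mice of the 5-day regimen and from 30.3% to 70.1% in those of the 10-day regimen. The 4 hepatocyte markers measured were above background on every array. At both 24-hr times no slide held Ctrl and AggE mice together, so slide and group cannot be told apart there. The slide as a random block, used below, cannot separate them there either. Nothing in these ratios separates fewer cells of a type from less RNA per cell.

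**Figure D1:**
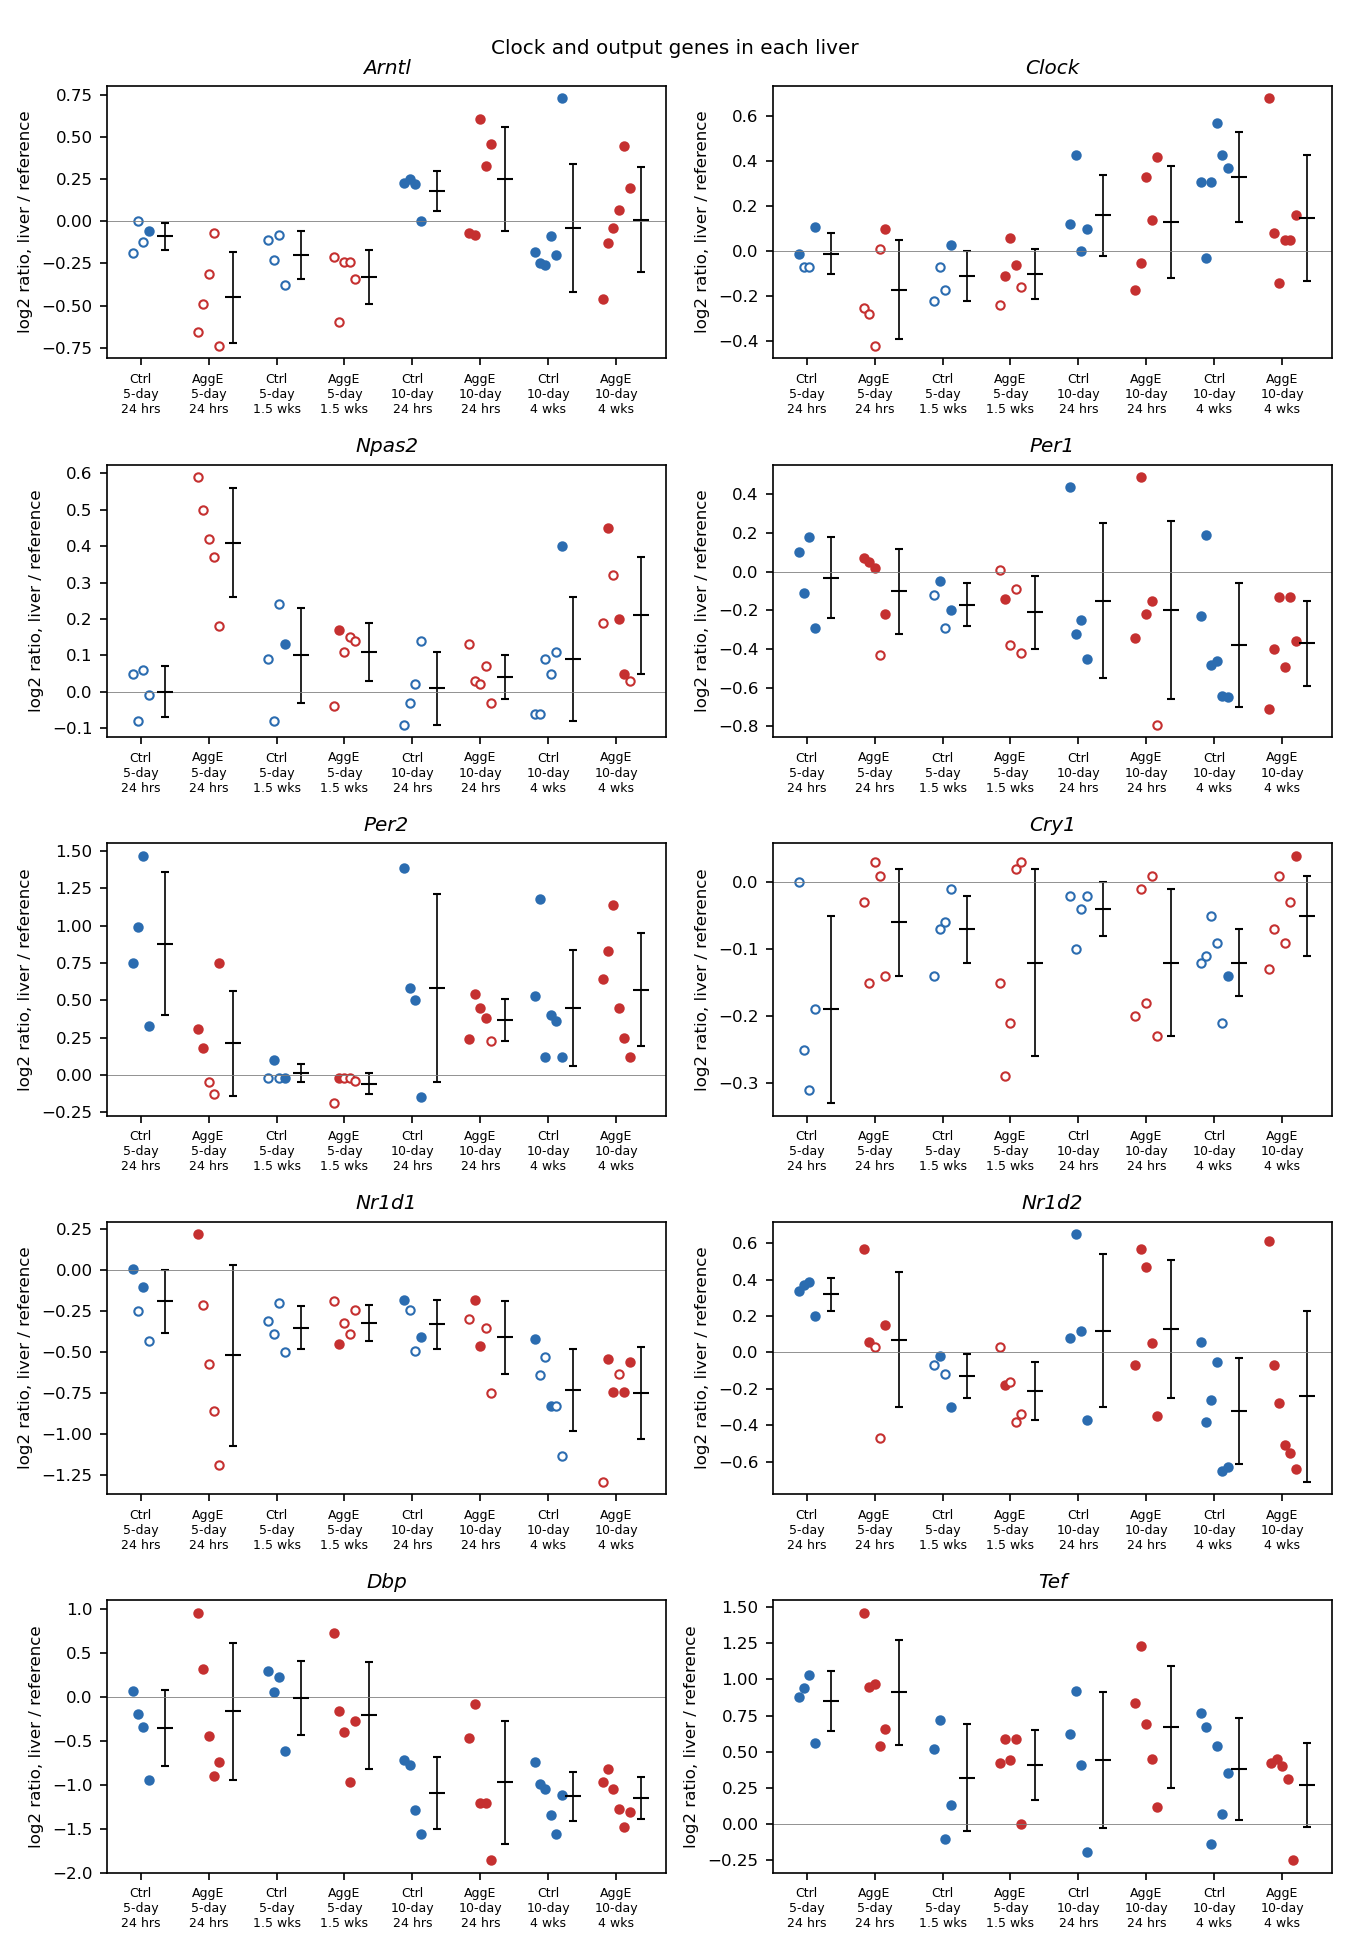
Log2 ratio of liver over reference (vertical axis) of the 10 genes in each mouse of the 8 groups (horizontal axis). Blue is Ctrl, red is AggE, filled circles are arrays on which the liver channel was well above background, open circles those on which it was not, and the black bar gives mean ± SD. Mean Dbp was lower in the 10-day groups than in the 5-day groups in both Ctrl and AggE mice, with overlap at 24 hrs, where the difference did not pass in either (limma adjusted p = 0.985 and 0.124). AggE mice at 4 wks also overlapped those at 1.5 wks, and Ctrl mice at 4 wks those at 24 hrs post-5-day stressor. Its AggE and Ctrl values overlapped at each time.

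The first question was whether AggE changed the clock genes. Of the 10 genes, 1 passed at 24 hrs post-5-day stressor (Benjamini-Hochberg adjusted p of 0.05 or less in limma), against 3.1% of all genes. None passed at 24 hrs post-10-day stressor (0.094% of all genes), at 1.5 wks (0%) or at 4 wks (4.18%). At an unadjusted p of 0.05, 4 members passed at 24 hrs post-5-day stressor (16.8% of all genes) and 0 at the later 3 comparisons (2.87%, 2.49% and 22.8%). The median difference over the 10 genes was -0.11, -0.0068, -0.046 and 0.032 at 24 hrs post-5-day, 24 hrs post-10-day, 1.5 wks and 4 wks, and that over all genes -4e-04, -0.0013, -0.0033 and 0.0071.

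Npas2, a stand-in for CLOCK, was the gene that passed. Its ratio was 0.05, -0.08, 0.06 and -0.01 in the 4 Ctrl mice and 0.59, 0.50, 0.42, 0.37 and 0.18 in the 5 AggE mice, 24 hrs after the 5-day stressor. All AggE mice were above all Ctrl mice. The difference was 0.41 (SE 0.09, 95% interval 0.23 to 0.58, limma adjusted p = 0.00703). Its liver signal was well above background on none of the 9 arrays of this comparison, so this is a difference of ratios near the detection limit, and no fold is given. It passed under 18 of 25 alternative processings and ran from 0.17 to 1.76. With the slide as a random block, which cannot separate slide from group here, the difference was 0.38 (limma adjusted p = 0.422). At the other times the differences were 0.03, 0.01 and 0.12.

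Per2, a repressor of the ARNTL pair, did not pass the test. At 24 hrs after the 5-day regimen had ended the 4 Ctrl mice had 0.75, 0.99, 1.47 and 0.33 and the 5 AggE mice 0.31, 0.18, -0.05, -0.13 and 0.75. The groups overlapped, with 1 AggE mouse level with a Ctrl mouse at 0.75 and 1 Ctrl mouse near the AggE values. The difference was -0.67 (SE 0.23, 95% interval -1.14 to -0.2, limma adjusted p = 0.102). It passed under 5 of 26 alternative processings and kept its sign in all 26, from -1.58 to -0.42. At 24 hrs post-10-day stressor it was -0.21 (95% interval -0.68 to 0.26), at 1.5 wks -0.07 and at 4 wks 0.12. Its second probe was 0.19 higher in AggE at 4 wks (limma adjusted p = 0.0974). Per1, the other period gene, differed by -0.07, -0.05, -0.04 and 0.01 at the 4 times in the order of 24 hrs post-5-day, 24 hrs post-10-day, 1.5 wks and 4 wks. Its widest interval was -0.45 to 0.31.

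Arntl, the activator, did not pass either. Its Ctrl mice had -0.19, 0, -0.12 and -0.06 and AggE mice -0.66, -0.49, -0.31, -0.07 and -0.74, 24 hrs post-5-day stressor. The lowest Ctrl mouse lay above 4 of the 5 AggE mice. The difference was -0.36 (95% interval -0.71 to -0.02, limma adjusted p = 0.26). Liver signal was well above background on 1 of the 4 Ctrl arrays and on none of the 5 AggE arrays, so no fold is given. At the other times it differed by 0.08, -0.13 and 0.06. Cry1, the partner of the period proteins, differed by 0.13 (limma adjusted p = 0.286) at 24 hrs post-5-day stressor, from ratios that were not above background on any array of either group, and its other probe was at -0.06 (limma adjusted p = 0.75). Clock, the partner of ARNTL, differed by -0.16, -0.03, 0.01 and -0.18. At 4 wks it was 0.33 ± 0.20 (SD, n = 6) in Ctrl and 0.15 ± 0.28 (SD, n = 6) in AggE (limma adjusted p = 0.379). An AggE mouse at 0.68 was above all Ctrl mice. Both other Clock probes went the other way at 4 wks, 0.17 and 0.11 higher in AggE (limma adjusted p = 0.135 and 0.524), and 1 of them also at 24 hrs post-5-day stressor, by 0.06.

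Nr1d1 and Nr1d2, the REV-ERB receptors, were -0.33 (95% interval -0.69 to 0.03) and -0.26 (95% interval -0.69 to 0.18) in AggE relative to Ctrl at 24 hrs post-5-day stressor. The 5 AggE mice of Nr1d1 ran from -1.19 to 0.22, whereas the Ctrl mice ran from -0.43 to 0.01. Both other Nr1d1 probes were at 0.06 and 0.09 in this comparison (limma adjusted p = 0.82 and 0.8), so the sign for Nr1d1 rests on 1 probe. At the other times neither differed by more than 0.08 on the log2 scale. Another Nr1d1 probe was 0.34 higher in AggE at 1.5 wks (limma adjusted p = 1).

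Dbp, the best measured output gene, did not pass between AggE and Ctrl at any time. The differences were 0.19 (95% interval -0.48 to 0.87) at 24 hrs post-5-day stressor, 0.12 (-0.55 to 0.79) at 24 hrs post-10-day stressor, -0.21 (-0.88 to 0.47) at 1.5 wks and -0.01 (-0.59 to 0.57) at 4 wks. At the first of these times the 5 AggE mice had 0.96, 0.32, -0.44, -0.90 and -0.74, wider apart than the Ctrl mice at 0.07, -0.19, -0.34 and -0.95. Tef differed by 0.06, 0.23, 0.09 and -0.11, with a widest interval of -0.4 to 0.52. At 4 wks its other probes were at 0.13 and 0.04 (limma adjusted p = 0.327 and 0.829). The residual SD of Dbp was 0.51 on the log2 scale, larger than that of 94.5% of 8704 genes above background on 20 arrays or more, where the median was 0.23. Per2, Tef and Nr1d2 had 0.36, 0.35 and 0.33.

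**Figure D2:**
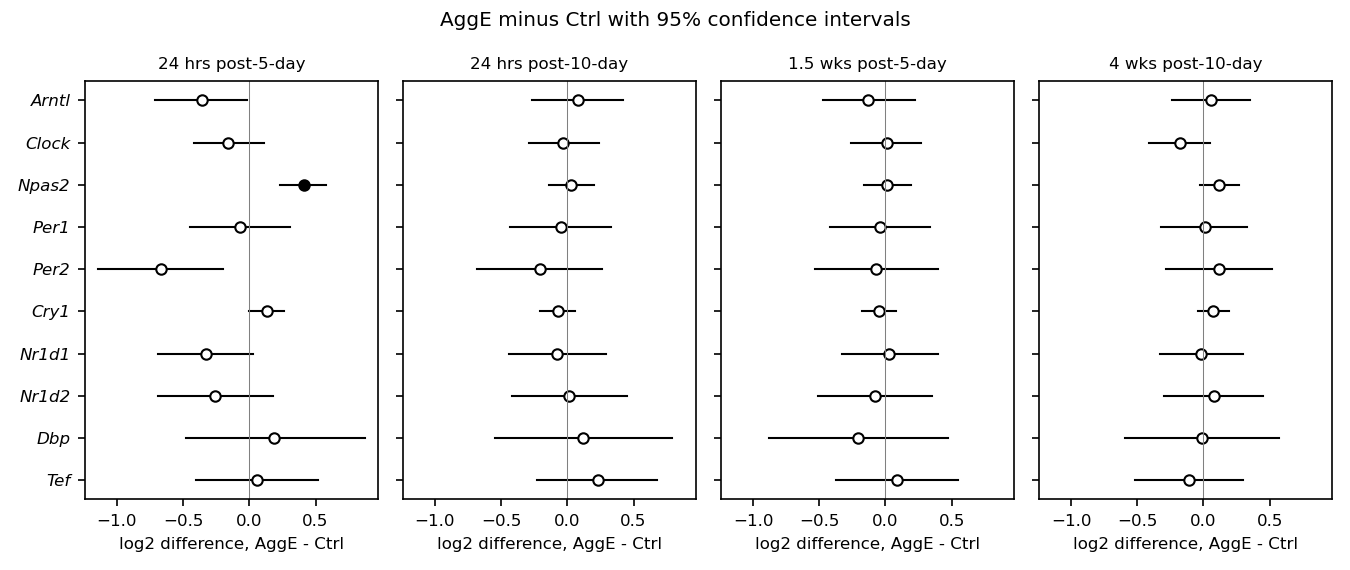
AggE minus Ctrl log2 difference (horizontal axis) of each gene (vertical axis) with its 95% confidence interval, in the 4 comparisons. Filled circles mark an adjusted p of 0.05 or less. The interval of Npas2 at 24 hrs post-5-day stressor, 0.23 to 0.58, is the one that passed.

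The changes themselves were then compared between times. None of the 10 genes passed for the difference between the 5-day and 10-day regimens at 24 hrs (0.0353% of all genes), between 24 hrs and 1.5 wks post-5-day stressor (0.094%) or between 24 hrs and 4 wks post-10-day stressor (0.0764%). At an unadjusted p of 0.05, 2 members, 1 member and 0 members passed, among 6.25%, 7.61% and 10% of all genes. The change in Npas2 differed by 0.38 between the regimens at 24 hrs (limma adjusted p = 0.375) and by 0.40 between 24 hrs and 1.5 wks (limma adjusted p = 0.312). These comparisons share mice.

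Genes around the loop were read against the same shares of all genes, 3.1%, 0.094%, 0% and 4.18% at the 4 times. Of 11 other clock factors, such as Per3, Cry2, Hlf and Nfil3, none passed in any of the 4 AggE minus Ctrl comparisons, with median differences of -0.13, 0.025, 0.0071 and 0.036. None of 10 measured genes that answer to systemic time cues (glucocorticoid, temperature and serum response) passed either. Their median differences were -0.067, -0.049, -0.094 and -0.3, and at 4 wks 4 of the 10 were lower at an unadjusted p of 0.05, against 22.8% of all genes in either direction. Of 16 clock-driven liver genes, Cyp2b10, a drug-metabolising enzyme, was 1.87 in AggE against 0.86 in Ctrl at 24 hrs post-10-day stressor (limma adjusted p = 0.0126), with no overlap between the groups. Cyp2a4, a steroid hydroxylase, was 6.35 in AggE against 7.62 in Ctrl at 4 wks (limma adjusted p = 0.0217). Of 12 modifiers of clock proteins, Csnk2a1, the catalytic subunit of casein kinase 2, was lower by -0.37 in AggE at 4 wks (limma adjusted p = 0.0347). With the slide as a random block the differences of Cyp2b10, Cyp2a4 and Csnk2a1 were 1.02, -1.18 and -0.32 and did not pass (limma adjusted p = 1, 0.123 and 0.218). For Cyp2b10, at 24 hrs, the block cannot separate slide from group.

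The 4 Ctrl groups, which had no aggressor in the regimen, were compared next. Regimen, time after it, age, the unstated clock hour of harvest and largely slide and scan day cannot be told apart among them. Each 24 hr Ctrl group lay on 1 slide of its own, and only the 1.5 wk and 4 wk groups shared a slide. All 24 hr Ctrl arrays were scanned on 1 day and all 4 wk Ctrl arrays on the other. The 1.5 wk group had both days. Among them, Clock, Per2 and Dbp passed a limma F test (adjusted p = 0.0297, 0.0381 and 0.0159), 3 of 10 genes against 31.5% of all genes. With the slide as a random block none passed (limma adjusted p = 0.481, 0.363 and 0.317 for Clock, Per2 and Dbp), against 7% of all genes. Since only the 1.5 wk and 4 wk Ctrl groups shared a slide, the block cannot separate slide from group in the other pairs. Leaving out 1 array gave 0 to 5 genes, with 0 when Ctrl replicate 1 at 1.5 wks was left out. Over all 6 pairs of Ctrl groups there were 6 calls. By pair, the calls numbered 0 for 10-day minus 5-day at 24 hrs (0% of all genes), 1 for 1.5 wks minus 24 hrs post-5-day stressor (13.8%), 2 for 4 wks minus 24 hrs post-5-day stressor (12.6%), 1 for 1.5 wks minus 24 hrs post-10-day stressor (16.6%), 0 for 4 wks minus 24 hrs post-10-day stressor (10.3%) and 2 for 4 wks minus 1.5 wks (26.9%). With 10 genes, these counts lie close to the shares of all genes.

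Dbp gave the largest of these. Ctrl mice had 0.07, -0.19, -0.34 and -0.95 at 24 hrs post-5-day stressor and 0.30, 0.06, 0.23 and -0.62 at 1.5 wks. At 24 hrs post-10-day stressor they had -0.72, -0.77, -1.29 and -1.56, and at 4 wks they ran from -1.56 over a median of -1.09 to -0.74. Thus the 10-day groups lay below the 1.5 wk mice without overlap. Dbp was 1.08 higher at 1.5 wks than at 24 hrs post-10-day stressor (limma adjusted p = 0.0327) and -1.13 at 4 wks relative to 1.5 wks (limma adjusted p = 0.00987). With the slide as a random block these were 0.99 (limma adjusted p = 0.427) and -0.97 (limma adjusted p = 0.125). On the 1 slide that held both 1.5 wk and 4 wk Ctrl mice the difference was -0.31, from 1 and 3 mice. The 1 mouse at 1.5 wks there, at -0.62, is the Ctrl mouse whose title carries the number 10 after the letters HC, which no other title has and which the labels do not explain, and the other Ctrl mice of its group ran from 0.06 to 0.30. In AggE mice the group means were -0.16 and -0.21 in the 5-day groups and -0.97 and -1.15 in the 10-day groups. There the 24 hr mice of the 10-day regimen (-1.86 to -0.08) overlapped those at 1.5 wks (-0.97 to 0.73), and 10-day minus 5-day at 24 hrs did not pass (-0.80, limma adjusted p = 0.124). The grouping into 5-day and 10-day mice rests on the source names, from which the titles of all AggE mice at 1.5 wks differ. Ordered by mean, the groups ran from Ctrl at 1.5 wks (-0.01), AggE at 24 hrs post-5-day (-0.16), AggE at 1.5 wks (-0.21) and Ctrl at 24 hrs post-5-day (-0.35) down to AggE at 24 hrs post-10-day (-0.97), Ctrl at 24 hrs post-10-day (-1.09), Ctrl at 4 wks (-1.13) and AggE at 4 wks (-1.15). Neighbours in this order overlapped throughout.

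Per2 was -0.88 at 1.5 wks relative to 24 hrs post-5-day stressor in Ctrl mice (limma adjusted p = 0.0134). At 1.5 wks the Ctrl mice had -0.02, 0.10, -0.02 and -0.02, below all 4 mice at 24 hrs (0.33 to 1.47). Its liver signal was above background on 2 of the 4 arrays at 1.5 wks, so the low values there lie near the detection limit. With the slide as a random block it was -0.93 (limma adjusted p = 0.223). Nr1d1 and Nr1d2 were lower in Ctrl at 4 wks than at 24 hrs post-5-day stressor, by -0.54 and -0.64 (limma adjusted p = 0.0375 and 0.0367). The other Nr1d1 probes lay higher at 4 wks, by 0.31 and 0.16 (limma adjusted p = 0.0838 and 0.227), and were above background on all 6 arrays at 4 wks and on none of the 4 at 24 hrs, whereas the chosen probe was so on 2 of 6 and 2 of 4. The direction of Nr1d1 therefore depends on the probe. With the chosen probe and Nr1d2, these became -0.44 and -0.74 with the slide block (limma adjusted p = 0.645 and 0.468), and -0.47 and -0.50 with the replicate number as a block (limma adjusted p = 0.0818 and 0.0571). Clock was 0.44 higher at 4 wks than at 1.5 wks (limma adjusted p = 0.0112) and 0.31 with the slide block (limma adjusted p = 0.175). Both other Clock probes were lower at 4 wks, by -0.06 and -0.20 (limma adjusted p = 0.582 and 0.145), so the direction of Clock depends on the probe. Between the same times the second Per2 probe was 0.22 higher (limma adjusted p = 0.0353) and another Nr1d1 probe 0.31 higher (limma adjusted p = 0.0482), where the chosen probes were at 0.44 and -0.38 (limma adjusted p = 0.151 and 0.108). These other probes were above background on 1 of 4 arrays at 1.5 wks, and with the slide block they were at 0.16 and 0.17 (limma adjusted p = 0.323 and 0.543).

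Markers of liver cells also differed between these Ctrl groups. Against 24 hrs post-5-day stressor, the Ctrl mice at 1.5 wks had Apoa1 at 8.39 against 6.78, Ttr at 0.63 against 2.67, the Kupffer cell markers Clec4f at 1.99 against 4.18 and Cd5l at 3.03 against 4.88, and the endothelial marker Stab2 at 0.58 against 2.29. Col1a1, a collagen of stellate cells, and Krt19, a keratin of bile ducts, were higher at 1.5 wks, at -2.88 against -3.93 and -1.48 against -2.12 (limma adjusted p = 0.00457 and 0.0164). Of these 7 markers Stab2 alone passed with the slide block (limma adjusted p = 0.0336), and the other 6 had limma adjusted p from 0.0765 to 0.332. More passed with this block in other Ctrl pairs. At 1.5 wks minus 24 hrs post-10-day stressor Alb, Apoa1, Ttr and Stab2 did (limma adjusted p = 0.0272, 0.0107, 0.0144 and 0.0307), and Clec4f and Col1a1 did not. At 4 wks minus 1.5 wks Ttr, Clec4f, Col1a1, Apoa1 and Alb did (limma adjusted p = 0.000191, 0.00478, 0.0174, 0.0314 and 0.0458), and Cd5l, Stab2 and Krt19 among others did not. All 4 hepatocyte markers and 6 of 18 markers of other cells passed the F test among Ctrl groups, against 31.5% of all genes, and 3 of 4 and 3 of 18 with the slide block, against 7%. The mean level over the 18 other markers ran from 0.14 to 0.44 at 1.5 wks, and from 0.52 to 0.67 at 24 hrs post-5-day stressor, 0.41 to 0.64 at 24 hrs post-10-day stressor and 0.41 to 0.67 at 4 wks. Their part in the clock results was not tested. Of the other clock factors, 5 of 11 passed the F test among Ctrl groups, against 31.5% of all genes, and 0 of 11 with the slide block. Hlf, a PAR bZip factor like DBP, was 0.38 at 1.5 wks against 1.77 at 24 hrs post-5-day stressor (limma adjusted p = 0.00364, and 0.221 with the slide block). Cyp7a1, the rate-limiting enzyme of bile acid synthesis, was 0.87 at 1.5 wks against 3.22 (limma adjusted p = 5.22e-05, and 0.0189 with the slide block), and 3.18 at 4 wks. Prkaa2, a catalytic subunit of AMP kinase, was 0.64 against 2.73 (limma adjusted p = 5.07e-05, and 0.0267 with the slide block), and 2.67 at 4 wks. At 4 wks minus 1.5 wks both also passed with the slide block (limma adjusted p = 0.000899 and 0.00247).

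Slides could be compared within 1 group, since the 6 Ctrl mice at 4 wks lay on 2 slides. Clock (0.26), Nr1d1 (-0.40) and Dbp (-0.41) did not overlap between the slides, which was so for 23.7% of all genes. The exact permutation p of 0.1 for each is the smallest that 3 against 3 can give.

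Among AggE mice 4 genes passed the F test over the 4 groups, Arntl, Npas2, Dbp and Clock (limma adjusted p = 0.00167, 0.00194, 0.00999 and 0.0495), against 49.1% of all genes. Arntl alone passed with the slide block (limma adjusted p = 0.0307), against 30.2% of all genes. By other probes, Per2 passed (limma adjusted p = 5.9e-06, and 0.00322 with the slide block) and so did Nr1d1 (limma adjusted p = 0.0298 and 0.0137, and 0.395 and 0.252 with the slide block). Arntl was -0.45 ± 0.27 (SD, n = 5) at 24 hrs post-5-day stressor and 0.25 ± 0.31 (SD, n = 5) at 24 hrs post-10-day stressor, which passed (limma adjusted p = 0.00653) and did not with the slide block (limma adjusted p = 0.134). Its liver signal was well above background on none of the 5 arrays of the first group and on all 5 of the second, so no size is given. No slide held mice of both groups, so the block cannot separate slide from group here. Between these groups, 4 cell markers passed, Cela1, a pancreatic elastase at background on all but 1 of 39 arrays, among them. The T cell marker Cd3e was 0.88 against 0.02, without overlap, the macrophage marker Adgre1 0.43 against 0.01 and the hepatocyte enzyme Tat 5.90 against 7.02 (limma adjusted p = 0.0104, 0.029 and 0.0332, and 0.382, 0.478 and 0.614 with the slide block). Among AggE groups, all 4 hepatocyte markers and 12 of 18 markers of other cells passed the F test, and 4 and 10 with the slide block, where 30.2% of all genes did. The mean level over the 18 ran from 0.44 to 0.64 at 24 hrs post-5-day stressor, 0.64 to 0.75 at 24 hrs post-10-day stressor, 0.19 to 0.62 at 1.5 wks and 0.33 to 0.68 at 4 wks. Their part in the clock results was not tested. Against AggE mice 24 hrs after the 5-day stressor, 2 members passed at 24 hrs post-10-day stressor (5.78% of all genes), 1 at 1.5 wks (23.7%) and 5 at 4 wks (26.3%). None of these calls passed with the slide block. At 4 wks the second Per2 probe and another Nr1d1 probe passed as higher (limma adjusted p = 1.01e-05 and 0.0045, and 0.0104 and 0.217 with the slide block), where the chosen probes did not pass. Both were above background on none of the 5 arrays at 24 hrs post-5-day stressor and on all 6 at 4 wks, so no size is given.

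Within groups, the output genes Dbp and Tef and the loop genes Per1, Per2, Nr1d1 and Nr1d2 varied together in part across mice. After each gene was centred on its group mean, 11 of 45 pairs of genes correlated across mice (Pearson's r, permutation within groups, adjusted p of 0.05 or less over the 45 pairs), 9 positively and 2 negatively. A size of r of 0.51 or more, the smallest among these, was reached by 24.4% of the member pairs, by 4.42% of all pairs of 16451 genes and by 8.15% of pairs of 8372 genes above background on 20 arrays or more. The Dbp pairs were Nr1d1 (r = 0.68, rho = 0.73, permutation p = 2e-05, adjusted permutation p = 0.0009), Tef (r = 0.63, rho = 0.57, permutation p = 8e-05, adjusted permutation p = 0.0012), Nr1d2 (r = 0.60, rho = 0.57, permutation p = 8e-05, adjusted permutation p = 0.0012) and Per1 (r = 0.53, rho = 0.45, permutation p = 0.00157, adjusted permutation p = 0.00883). Nr1d2 and Tef had r = 0.66, Per1 had r = 0.56 with Per2, 0.53 with Nr1d1 and 0.56 with Tef, and Per2 had r = 0.51 with Tef. Clock ran the other way, with r = -0.59 against Per1 and -0.56 against Nr1d1. Without the 2 arrays farthest from the median, Dbp kept r = 0.59 with Nr1d1, 0.54 with Tef and 0.62 with Nr1d2. Nr1d1 was above background on 14 of 39 arrays, and its other probes had r = 0.30 and 0.13 with Dbp. The other Tef probes, dimmer than the chosen one, had r = 0.40 and 0.12.

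Centred on group and slide, in 32 arrays, 8 pairs passed, 6 of them among the 11. Dbp then had r = 0.77 with Nr1d1, 0.57 with Tef and 0.63 with Nr1d2, whereas Clock had -0.44 with Per1 (adjusted permutation p = 0.194) and -0.12 with Nr1d1 (adjusted permutation p = 0.791). Dbp with Nr1d1, Nr1d2 and Tef, Nr1d2 with Tef and Per2 with Tef passed under all 7 alternatives run. Arntl had r = -0.43 with Nr1d2 and -0.30 with Dbp (adjusted permutation p = 0.0824 and 0.213) and -0.57 with Nr1d1 after centring on group and slide (adjusted permutation p = 0.0116). All pairs share the arrays and their depth of signal, and mice of 1 slide are not separate in handling. The pairs were not adjusted for the replicate number, with which Dbp varied (below).

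**Figure D3:**
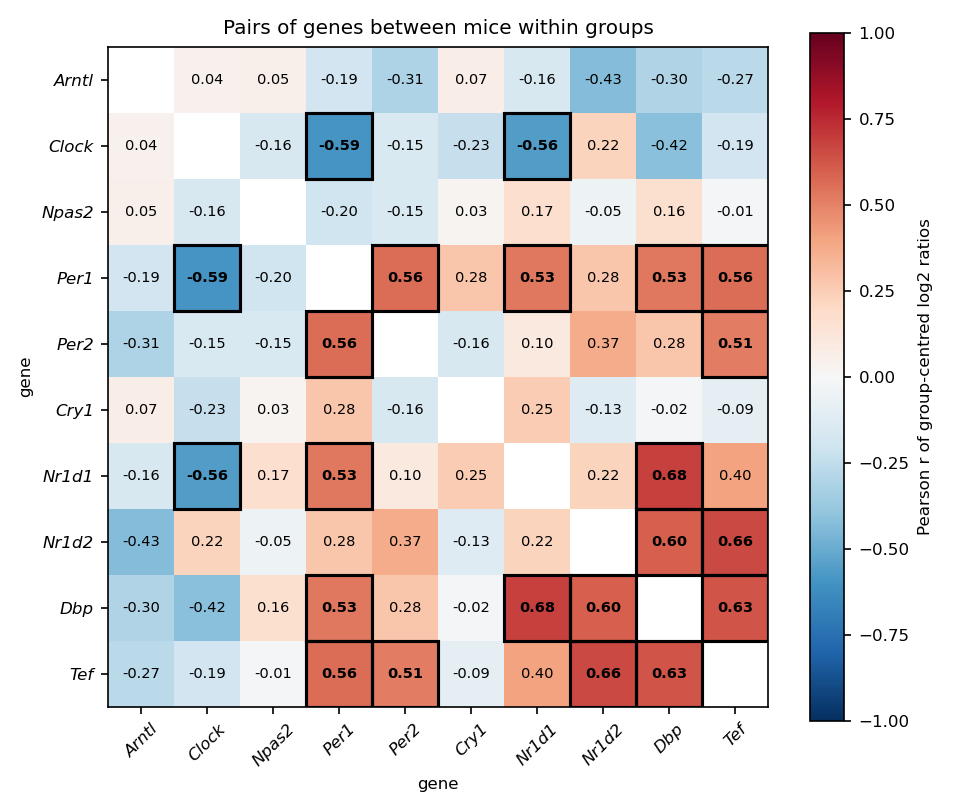
Pearson r (colour and number) of group-centred log2 ratios for each pair of the 10 genes over the mice. Boxes mark pairs with an adjusted permutation p of 0.05 or less, with Nr1d1 and Dbp highest at 0.68, by the Nr1d1 probe with the highest mean Cy5 signal.

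**Figure D4:**
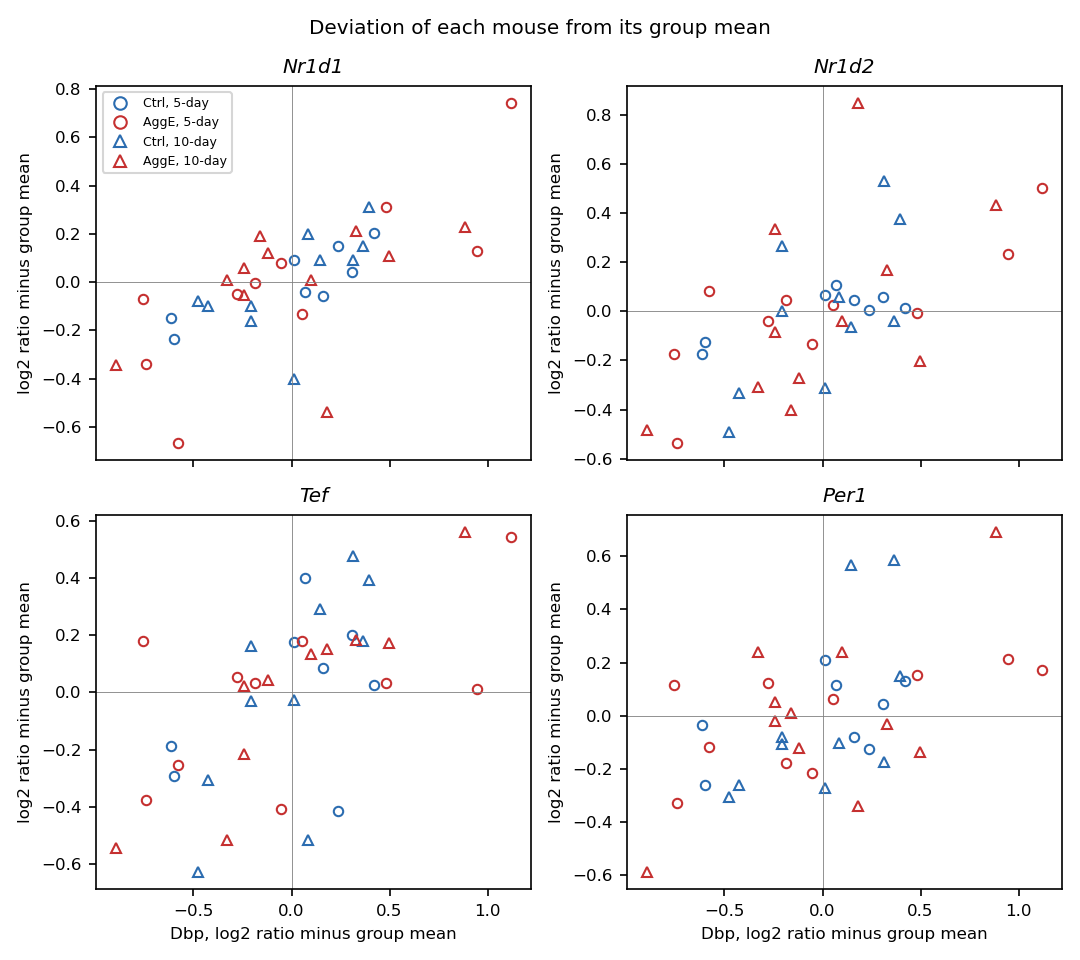
Deviation of each mouse from its group mean in Dbp (horizontal axis, log2 ratio) and in Nr1d1, Nr1d2, Tef and Per1 (vertical axes, log2 ratio). Circles are 5-day and triangles 10-day mice, blue is Ctrl and red is AggE; mice high in Dbp were also high in Nr1d1 by this probe (r = 0.68).

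The genes most like Dbp over the same mice were ranked among 8703 genes above background. Outside the members the highest were Get4 (r = 0.69), Use1 (r = 0.66) and Dennd2a (r = 0.66), and among the lowest were Clpx (r = -0.80) and Elovl3 (r = -0.77), a fatty acid elongase with a daily rhythm in liver. The listed liver outputs ran from Por, the reductase that feeds electrons to P450 enzymes, at rank 6 (r = 0.63) down to Elovl3. Nr1i3 (r = -0.02), Ppara (r = -0.03) and Gys2 (r = -0.05) lay near 0. Of the listed other clock factors Bhlhe40 was highest (r = 0.52) and Nfil3, which binds D-boxes as a repressor, lowest (r = -0.59). Hlf had r = 0.31. For Arntl the highest were Pnp (r = 0.68), Tmem218 (r = 0.67) and Rab20 (r = 0.65), and the lowest Fchsd1 (r = -0.66), Rnaseh2b (r = -0.66) and Get1 (r = -0.65). These are descriptions over 39 arrays, with no test.

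The replicate number, which the labels give to each mouse and which carries no stated meaning, was tested as a term with group means in the fit, chosen after seeing the data. It passed for 10 of 17016 genes (0.0588%) and for 1 member, Dbp (F = 14.7, limma adjusted p = 0.00448). Among the others were Dtx4, Elovl3 (limma adjusted p = 0.0126), Por (limma adjusted p = 0.0356), Hmgcs1, Rnf125, Ncdn, Herpud1 and St3gal5. The mean deviations of Dbp from the group mean were 0.53, 0.30, -0.06, -0.47, -0.46 and -0.07 for the mice numbered 1 to 6. Tef and Nr1d2 ranked 16 and 66 by p and did not pass (limma adjusted p = 0.15 and 0.603). Their deviations went from 0.21 and 0.23 at number 1 to -0.41 and -0.24 at number 5. Arntl, the next member at rank 364, went from -0.12 to 0.04. With the position of the array on its slide as a further term, 0 genes passed (0%) and Dbp had a limma adjusted p of 0.137. For mice 1 to 4 of every 24 hr group the number equals the position, so this fit cannot tell the terms apart there. Whether the numbers follow the order of harvest is not given in the sources used here and was not tested.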

How the data were processed

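Liver RNA (Cy5) and Universal Mouse Reference RNA (Cy3) of 39 mice were hybridized to 2-colour Agilent arrays, 1 per mouse, without a dye swap. The authors deposited scanner intensities per spot, read with Feature Extraction (version 11.5.1.1 in the headers), and log10 ratios. The ratio is 0 for 10.7% to 48.9% of spots per array and elsewhere lies within 0.393 of log10 of processed Cy5 over Cy3. The series table repeats them in rounded form. Here normexp with an offset of 50, loess within arrays and quantile normalization between arrays were applied to the median intensities, outlier spots were set to missing, and 25903 RefSeq probes were tested in 1 limma fit (3.58.1, R 4.3.3) with 8 group means and Benjamini-Hochberg adjustment over all probes. The study's methods name background correction, LOWESS, quantile normalization and a moderated test. A gene takes its probe with the highest mean Cy5 signal; other probes are named where their call differs, and where their sign does in the larger differences. Genes named are all members, list genes with an adjusted p of 0.05 or less (at most 4 per list and comparison), and the 3 most and least like Dbp and Arntl. Some results under this rule are not reported here. Members and lists were chosen with earlier results of these data known. Replicate labels denote separate mice, and few arrays per group limit the precision. Alternatives covered background, scaling, probes, blocks, weights and leaving out each array. The fit was tested on simulated data. No array was a copy of another.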

Additional observations from a re-analysis of the deposited data

Results flagged for a closer look

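In 10 of 80 combinations of gene and group, 1 mouse stood far from the rest of its group by Dixon's test, of which chance gives about 1 in 20. Over all genes, 9.5% of 135903 such combinations did. Arntl was 0 in the Ctrl replicate 4 at 24 hrs post-10-day stressor, against 0.22 to 0.25 in the other mice, and 0.73 in the Ctrl replicate 6 at 4 wks, against -0.26 to -0.09. The same Ctrl mouse was high in Npas2, 0.40 against -0.06 to 0.11. AggE replicate 1 at 4 wks had Clock at 0.68, against -0.14 to 0.16, and Nr1d1 at -1.29, against -0.74 to -0.54. At 1.5 wks, AggE replicate 1 had Npas2 at -0.04, against 0.11 to 0.17, and Per2 at -0.19, against -0.04 to -0.02, and Ctrl replicate 2 had Per2 at 0.10, against -0.02 in the other 3 mice, near the detection limit. Tef was 0 in AggE replicate 5 at 1.5 wks, against 0.42 to 0.59, and -0.25 in AggE replicate 5 at 4 wks, against 0.31 to 0.45.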

How the results depend on the processing

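Over 1078 alternatives to the single-gene AggE minus Ctrl differences, 1064 kept their side of the threshold, 7 lost and 7 gained significance, and no value that passed, in either setting, changed sign. Differences near 0 that never passed did change sign, such as Clock at 1.5 wks, which kept it in 16 of 27 settings, and Nr1d1 at 4 wks, in 16 of 29. At 24 hrs post-5-day stressor 2 members passed without background correction, with an offset of 16, with Cy5 alone and with array weights, against 1, and 0 passed without normalization between arrays, with Aquantile (which leaves ratios unscaled and gives the same values), with the processed signals, the series table's ratios, probes well above background alone, the slide as a random block, or the groups of the comparison alone; leaving out 1 array gave 1 to 1. At 4 wks 1 (Clock, -0.35) passed without normalization between arrays and with Aquantile, and array weights gave 1 (Npas2) for the difference of the regimens at 24 hrs. The 6 calls among Ctrl pairs became 3 with an offset of 0, 11 without normalization between arrays and with Aquantile, 10 with Cy5 alone and with the series table, 0 with the slide as a random block and 2 with the scan day as a block (chosen after seeing the data). Leaving out 1 array gave 3 to 6 (3 without Ctrl replicate 3 at 24 hrs post-5-day stressor). For the F test among Ctrl groups, 3 became 5 without background correction, without normalization between arrays and with Aquantile, 0 with the slide or scan day block, and 0 to 5 on leaving out 1 array (0 and 1 without Ctrl replicates 1 and 3 at 1.5 wks, 5 without Ctrl replicate 1 at 4 wks). Among AggE groups, 4 became 2 with an offset of 0, without normalization between arrays, with Aquantile, with the processed signals and with the scan day block, 1 with the slide block, and 3 to 7 on leaving out 1 array (7 without AggE replicate 5 at 24 hrs post-5-day stressor). Of gene pairs, 19 passed with the processed signals and 21 without background correction and with the series table, against 11. Genes without overlap between the 4 wk Ctrl slides numbered 1 with the processed signals and with Cy5 alone and 5 without normalization between arrays, against 3. The causes were not tested. Over all genes the deviations of mice with the same replicate number had r from -0.45 to 0.5, not over 0.1 in every pair, so the numbers were not taken to pair mice, although Dbp varied with them; with it as a replicate block, the calls were 1, 0, 0 and 0 for AggE minus Ctrl, 6 for Ctrl pairs (in Per2, Tef, Dbp and Clock, without those of Nr1d1 and Nr1d2), and 2 and 5 for the F tests. A fixed slide block could not be fitted at 24 hrs. Genes near background, above all Npas2 and Cry1, allow no firm statement.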
